A study of Homo sapiens with 9 samples.

Results

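The 6 globin genes transcribed in K562 cells (HBE1, HBG1, HBG2, HBZ, HBA1 and HBA2) were followed through every library of the series. The members were the peaks that overlapped these genes on their own strand, with the gene models of GENCODE on GRCh38. Of 2478204 merged peaks in all, 478 were members, and 470 of the 478 came from the 30 multiplexed K562 libraries. The span of 1 coding transcript per gene was used as its model, because the annotated spans of HBG2 and HBE1 run far upstream. The models were HBG1 (ENSG00000213934, chr11:5248269-5249857), HBG2 (ENSG00000196565, chr11:5253188-5254781) and HBE1 (ENSG00000213931, chr11:5268345-5269945) on the minus strand, and HBZ (ENSG00000130656, chr16:152644-154503), HBA1 (ENSG00000206172, chr16:176680-177522) and HBA2 (ENSG00000188536, chr16:172876-173710) on the plus strand, each with 3 exons.

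Globin chains are the protein part of haemoglobin. HBE1 encodes the embryonic beta-like chain and HBG1 and HBG2 the fetal ones, and all lie in the beta-globin cluster on chromosome 11. HBZ encodes the embryonic alpha-like chain and HBA1 and HBA2 the alpha chains of fetal and adult haemoglobin, and all lie in the alpha-globin cluster on chromosome 16. K562 is a chronic myelogenous leukaemia line with erythroid features that makes embryonic and fetal haemoglobin, whereas HEK293 is a line from embryonic kidney.

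The assay was antibody-barcode eCLIP (ABC), in which RNA crosslinked to an RNA-binding protein (RBP) by ultraviolet light is captured with a DNA-barcoded antibody and the barcode is ligated to the RNA. The multiplexed (10plex) samples held antibodies to 10 RBPs in 1 tube. DDX3 and EIF3G act in translation initiation, LIN28B, IGF2BP2 and PUM2 regulate mRNAs after splicing, ZC3H11A takes part in mRNA export, FAM120A is a cytoplasmic RBP, RBFOX2 regulates splicing, and PRPF8 and SF3B4 are parts of the spliceosome. There were 3 10plex K562 samples (30 libraries), 2 10plex HEK293 samples (20 libraries), 2 singleplex samples with an antibody to SLBP, the histone mRNA binding protein, in K562, and 2 with an antibody to RBFOX2 in HEK293. No treatment is given for any sample, there is no sample without an antibody, and nothing in the labels says whether replicates were separate cultures, so that errors measure only the spread between these samples, which may be technical. The HEK293 samples are labelled HEK293T.

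The K562 10plex libraries held 13351 to 2189876 reads in peaks, with PUM2 the shallowest and FAM120A the deepest, and the HEK293 10plex libraries 16523 to 2927786. No peak had under 3 reads. The titles and sources of the HEK293 10plex samples name HEK293T whereas their cell line field names K562, and the source of K562 sample 3 reads K563. Peaks were therefore checked on marker genes: all 7 K562 markers (among them GATA1 and KLF1) had a peak in K562 libraries and 1 of 7, EPOR, in HEK293 libraries, in 6 of each line. All 6 HEK293 markers had a peak in HEK293 libraries and 2 of 6, PAX2 and NEFM, in 4 and 3 K562 libraries. In those libraries the levels were not low: NEFM reached 1188 RPM in K562 and 1155 in HEK293, and PAX2 167 and 105 RPM. The other 10 markers had peaks with a read number in the line of the title alone. Only peaks with a read number were counted on marker genes, so the HEK293 counts may be too low.

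Near-identical copies decided where these mRNAs could be read at all. HBG1 and HBG2 share every base of the 53-base 5′ UTR, differ at 2 of 444 coding bases (positions 227 and 410 of the coding sequence), and differ in the 3′ UTR by 2 substitutions and 1 gap base. HBA1 and HBA2 share all 429 coding bases and all 37 bases of the 5′ UTR, while their 3′ UTRs are 82.0% identical. The authors kept reads that map to 1 place, so a read from a shared stretch is lost. The bases at the 2 differing coding positions (in capitals, counted from 1 at the A of the start codon) are shown in their 30-base surroundings, since the LIN28B peaks described later lie on them:
HBG1 position 227, chr11:5249441-5249470, minus strand: cttgggagatgccaCaaagcacctggatga
HBG2 position 227, chr11:5254365-5254394, minus strand: cttgggagatgccaTaaagcacctggatga
HBG1 position 410, chr11:5248378-5248407, minus strand: gaagatggtgactgCagtggccagtgccct
HBG2 position 410, chr11:5253296-5253325, minus strand: gaagatggtgactgGagtggccagtgccct

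A base was taken as placeable where some 30-base word over it occurs once in the genome. HBE1 was placeable over all of its 623 exon bases, HBZ over 374 of 798, HBG1 over 219 of 587, HBG2 over 218 of 586, HBA1 over 132 of 577 and HBA2 over 131 of 576. Peaks of the 30 K562 libraries together covered 96.3% of the placeable and 9.78% of the other exon bases of HBG1. The corresponding values were 93.6% and 4.89% for HBG2, 63.1% and 11.6% for HBZ, 90.2% and 2.47% for HBA1, and 80.9% and 1.57% for HBA2. Every one of the 470 K562 peaks touched a placeable base. The 5′ UTR and first exon of the gamma-globin mRNAs, and nearly all of the 5′ UTR and coding sequence of the alpha-globin mRNAs, were not placeable, so that a lack of peaks there cannot be read as a lack of binding. Only on HBE1 can positions be read along the whole mRNA.

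**Figure D1:**
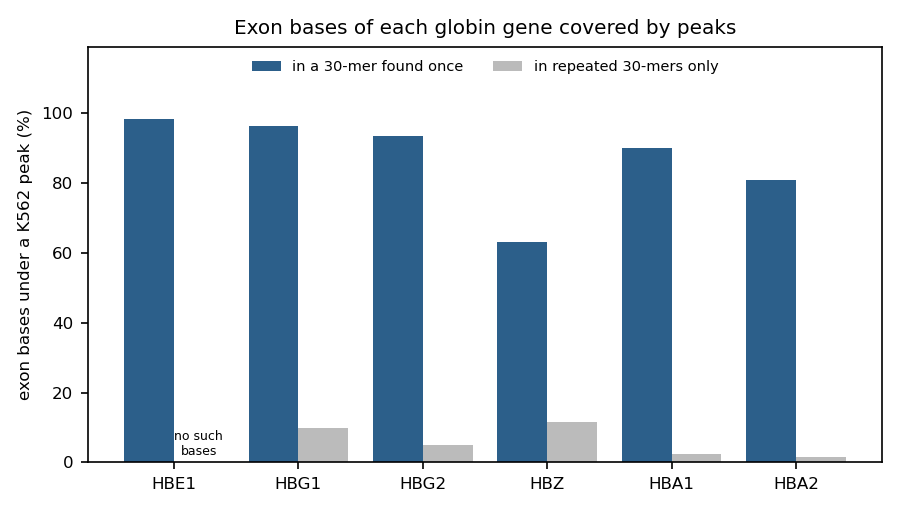
Percent of the exon bases of each globin gene that lay under a peak of at least 1 of the 30 K562 10plex libraries, for bases in a 30-base word found once in the genome (blue) and for the other bases (grey). HBE1 has no bases of the second kind, and in the other 5 genes the grey bars reach at most 11.6%.

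The first question was how much of each library lay on the globin mRNAs. Levels are given as reads in the peaks of a gene per 1000000 reads in all peaks of the library (RPM). HBE1 was the most read globin mRNA in 30 of 30 K562 libraries, with a lowest, median and highest level of 225, 1243 and 3478 RPM, and ranked between place 38 and place 949 among all genes of a library. HBG1 had a median of 192 RPM (0 to 1038) and peaks in 29 libraries, and HBG2 a median of 151 RPM (0 to 660) and peaks in 28. HBZ and HBA1 had near-equal medians of 64.9 RPM (0 to 341, 27 libraries) and 64.5 RPM (0 to 290, 26 libraries), and HBA2 had the lowest, 5.77 RPM (0 to 92.8, 19 libraries). These levels count only reads that could be placed. Per 100 placeable exon bases the medians were 199 RPM for HBE1, 87.8 for HBG1, 69.3 for HBG2, 48.8 for HBA1, 17.4 for HBZ and 4.40 for HBA2. On that scale HBE1 remained the highest in 27 of 30 libraries, and the other 3 were the LIN28B libraries, in which HBG1 was the highest.

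The 10 RBPs fell into an upper and a lower range. The summed level of the 6 mRNAs was 3727 ± 958 RPM for EIF3G (SD, n = 3), 3365 ± 931 for LIN28B, 3139 ± 698 for DDX3, 2834 ± 878 for IGF2BP2 and 2456 ± 830 for ZC3H11A. It was 1009 ± 174 for RBFOX2, 813 ± 70.0 for SF3B4, 690 ± 181 for PRPF8 and 444 ± 98.3 for FAM120A. PUM2, with the fewest reads, spread over both ranges at 1375 ± 1059 RPM. The replicates of the 5 highest RBPs overlapped, and all of them lay above those of RBFOX2, SF3B4, PRPF8 and FAM120A. HBE1 made up 58.6% (LIN28B) to 79.4% (PUM2) of the summed level. Depth moved with the RBP, from 13351 reads in a PUM2 library to 2189876 in a FAM120A library, and its part in these levels was not tested.

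**Figure D2:**
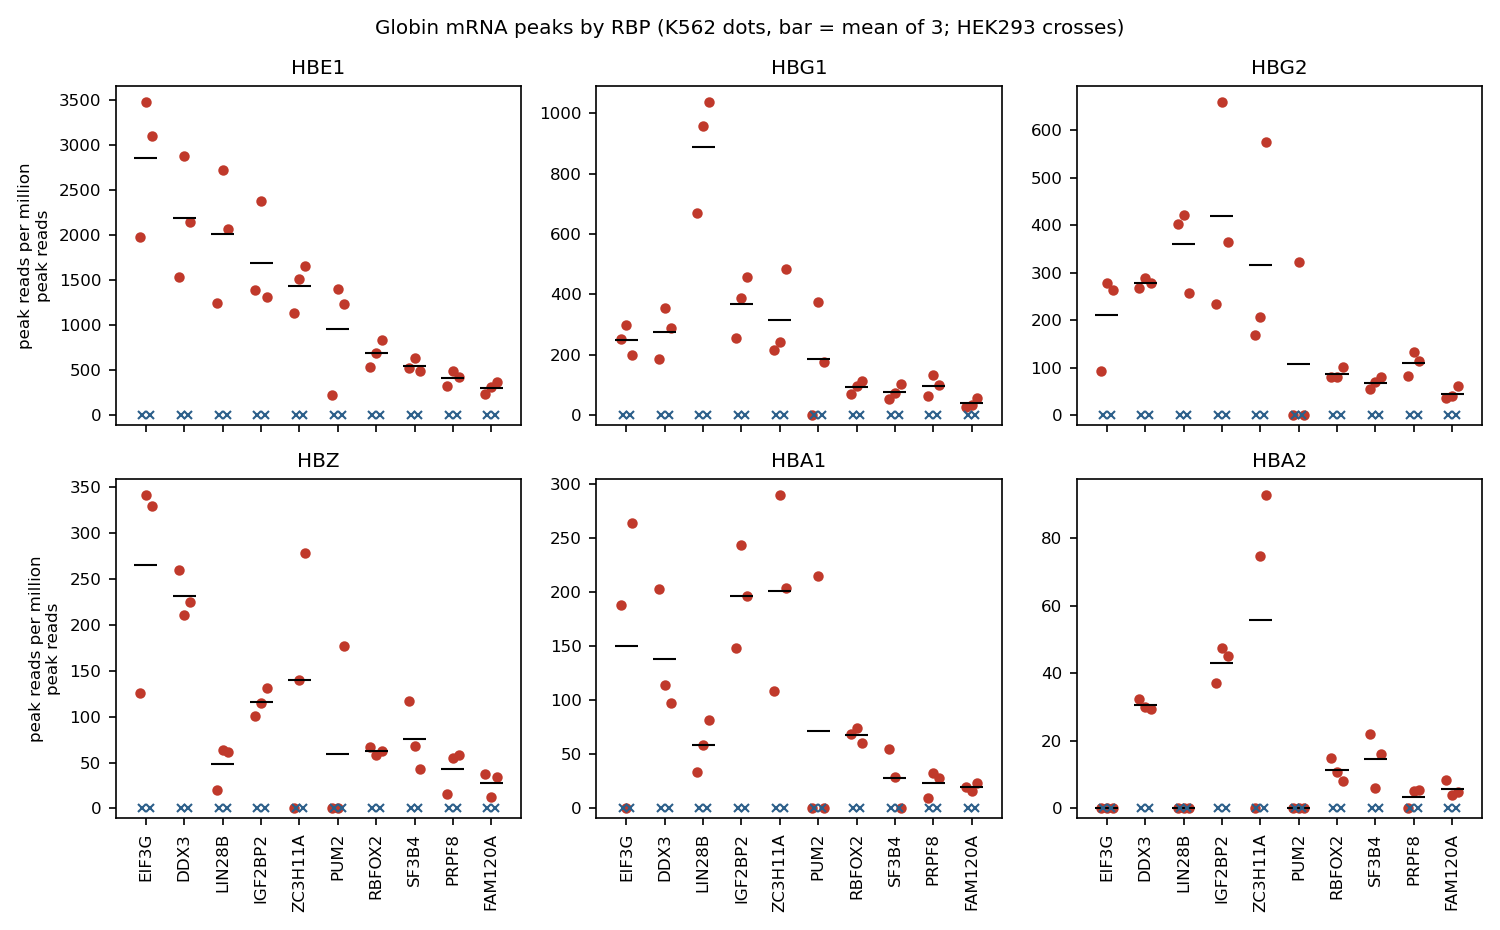
Level in RPM on each globin mRNA, by RBP. Dots are the 3 K562 10plex samples, bars their mean, and crosses the 2 HEK293 10plex samples, all of which lie at 0. LIN28B stands above the other RBPs on HBG1, where its 3 values lie between 668 and 1038 RPM.

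Each RBP was then set against the other 9 of its pool, gene by gene, over the 12945 genes with a peak in at least 3 K562 libraries, by an exact two-sided permutation test within replicates with Benjamini-Hochberg adjustment over all 129450 pairs of gene and RBP. Of the 60 globin pairs 2 were called (3.33%), where 4.38% of all pairs were called, so that the globin share lay near the background. The smallest p this design allows is 0.001. Without adjustment 11 of the 60 globin pairs (18.3%) and 14.7% of all pairs had p under 0.05.

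The call for a higher level was LIN28B on HBG1, the A-gamma globin mRNA. LIN28B gave 668, 958 and 1038 RPM in the 3 samples, and the 27 libraries of the other 9 RBPs gave 0 to 483 RPM. All 3 LIN28B libraries stood above every other library of their own pool. The mean log2(RPM + 10) was 2.59 ± 0.27 above that of the other 9 (SD over 3 replicates, adjusted p = 0.0457 by exact permutation; 3.87% of genes were called higher for LIN28B). By the same exact permutation test the call was lost with a pseudocount of 1 (adjusted p = 0.242), with touching peaks counted once (adjusted p = 0.11), with all genes that have a peak (adjusted p = 0.058) and without the replicate block (adjusted p = 0.066).

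The G-gamma mRNA HBG2, which differs from HBG1 at the few bases shown above, gave LIN28B levels of 402, 422 and 258 RPM, within the 0 to 660 RPM of the other RBPs. Its log2 difference was 1.49 ± 0.66 (adjusted p = 0.473, exact permutation). Set against HBG2 in the same library, HBG1 was 0.72, 1.16 and 1.97 higher on the log2(RPM + 10) scale for LIN28B. The means for 8 of the other RBPs lay between -0.19 and 0.34, from FAM120A to EIF3G, and PUM2 gave 0.00, 0.22 and 4.22 with no HBG2 peak in samples 1 and 3. A single EIF3G library, of sample 1, reached 1.33. This ratio was chosen after the values were seen and was not tested.

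The call for a lower level was FAM120A on HBE1. FAM120A gave 230, 315 and 373 RPM and the other 9 RBPs 225 to 3478 RPM, and the FAM120A library was below all others of its pool in 2 of 3 samples. Its log2 difference was -1.87 ± 0.26 (adjusted p = 0.0457 by exact permutation; 0.912% of genes were called lower for FAM120A), and with a pseudocount of 1 or with all genes that have a peak the adjusted p was 0.0521 and 0.058. FAM120A also had the lowest mean of the 10 RBPs on HBG1 (39.2 RPM), HBG2 (45.5 RPM), HBZ (28.0 RPM) and HBA1 (19.9 RPM), none of which passed the test. The FAM120A library was the deepest of each pool, and the part of depth in these levels was not tested.

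The other pairs did not pass after adjustment. EIF3G, a subunit of the initiation factor that brings mRNAs to the ribosome, gave 1973, 3478 and 3101 RPM on HBE1 and was the highest RBP in all 3 pools, with a log2 difference of 1.64 ± 0.02 (adjusted p = 0.126, exact permutation). On HBZ, EIF3G gave 125, 341 and 330 RPM and DDX3, an RNA helicase of translation initiation, 259, 211 and 225 RPM, with adjusted p of 0.217 and 0.263. IGF2BP2 had 37.2, 47.4 and 45.0 RPM on HBA2 (adjusted p = 0.166, exact permutation). EIF3G, LIN28B and PUM2 had no HBA2 peak in any sample. A peak of 3 reads amounts to 93.9 RPM in EIF3G sample 1 and to 225 and 177 RPM in PUM2 samples 1 and 3. It amounts to 20.5 RPM in LIN28B sample 1. A level like that of IGF2BP2 could not have shown in those EIF3G and PUM2 libraries, so their lack of a peak is not a difference between RBPs. HBA2 reached 92.8 RPM at most, in a ZC3H11A library.

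Which binding was particular to an RBP at the level of single peaks was read from the complement control (CC), the reads of the other 9 RBPs of the same pool in the same interval. A peak was called enriched at P below 0.001 and a fold above 8, the limits of the study's methods. Of the 470 globin peaks, 12 were enriched (2.55%), where 20.4% of all K562 10plex peaks were, and the median fold was 1.19 on globin mRNAs and 4.51 over all peaks. PRPF8 held 6 of the 12 (of its 60 globin peaks, 10.0%, background 22.5%), LIN28B 5 (of 48, 10.4%, background 37.5%) and EIF3G 1 (of 30, 3.33%, background 31.7%). The other 7 RBPs had no globin peak past the limits. At any fold above 1 with the same P, 114 globin peaks passed (24.3%), where 29.8% of all peaks did. IGF2BP2 held 37 of its 61 (60.7%, background 21.7%), LIN28B 29 of its 48 (60.4%, background 46.0%) and DDX3 28 of its 53 (52.8%, background 35.3%), and the other 20 were 11 of EIF3G, 6 of PRPF8 and 3 of ZC3H11A.

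All 6 enriched PRPF8 peaks lay across the start of intron 2 of the gamma-globin genes, 1 per gene and sample. PRPF8 is the large spliceosomal protein that contacts the 5′ splice site. On HBG1 the peaks had 11, 27 and 23 reads against 1, 16 and 5 of the CC, which gave folds of 58.4, 12.7 and 19.3. On HBG2 they had 14, 30 and 36 reads against 3, 17 and 8 of the CC, which gave folds of 24.8, 13.3 and 18.9. The centres lay 11 to 24 bases into the intron and 81.5% to 92.2% of the bases of these peaks were placeable. No other RBP had a peak in intron 2 of either gene in any sample. The splice sites, with the first 6 intron bases in capitals, show that the last exon bases and the first intron bases are shared with HBE1:
HBG1 exon 2 end, chr11:5249348-5249377, minus strand: gaacttcaagGTGAGTccaggagatgtttc
HBG2 exon 2 end, chr11:5254272-5254301, minus strand: gaacttcaagGTGAGTccaggagatgtttc
HBE1 exon 2 end, chr11:5269434-5269463, minus strand: gaacttcaagGTGAGTtcaggtgctggtga

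On HBE1 PRPF8 had a peak in intron 2 in 1 of 3 samples, at a fold of 1.34 (25 reads against 78). In intron 1 it had a peak in 2 of 3 samples, at folds of 1.59 and 1.14. SF3B4, a subunit of the U2 snRNP that contacts the RNA near the branch point, had an HBE1 intron 2 peak in samples 2 and 3, at folds of 2.51 and 2.35. On the gamma genes PRPF8 had 36.5% ± 6.80 (HBG1) and 38.2% ± 4.77 (HBG2) of its peak reads in the intron (SD, n = 3), and on HBE1 0, 3.81 and 23.7% in the 3 samples. Exon reads of the gamma mRNAs, those of the CC among them, count only where bases are placeable, whereas HBE1 is placeable throughout. Neither these shares nor the intron folds of the gamma genes can therefore be set against those of HBE1.

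LIN28B is known to prefer GGAG and to bind coding sequences. Its highest mean fold on a gamma mRNA, 9.44 ± 2.40 (SD, n = 3), lay at the coding end of HBG1 exon 3, over position 410: 11.04, 10.6 and 6.68 in the 3 samples, with 82, 153 and 98 reads. The peaks ran over chr11:5248362-5248422, chr11:5248363-5248418 and chr11:5248357-5248422. In the homologous part of HBG2 exon 3 the LIN28B folds were 3.54, 3.53 and 1.98, below each HBG1 value. The window over position 410 holds GGAG in HBG2 and not in HBG1, so the mRNA with the lower LIN28B fold is the one with the letters. Position 410 is the only base that differs in this window, and in HBG2 it is a G of the GGAG. Within the window, reads of the 2 genes are therefore told apart only by a base of the motif itself. The part of read placement in these folds was not tested, so they do not show which mRNA LIN28B prefers. In exon 2 the folds were 7.67, 7.37 and 2.46 on HBG1 and 11.8, 6.90 and 3.03 on HBG2, and the HBG2 peak of sample 1 passed the limits. The windows shown over position 227 hold GGAG in both genes, and this HBG2 peak covers it.

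On HBE1 LIN28B passed with 2 touching peaks of sample 2 in exon 2, at folds of 9.75 (117 reads) and 11.6 (98 reads). Summed over the exon the folds were 3.86, 6.26 and 2.61. The window at the median centre of the most read LIN28B peak of each sample in this exon is shown, with GGAG in capitals:
HBE1 exon 2, chr11:5269534-5269563, minus strand: tgacttcctttGGAGatgctattaaaaaca

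Within 30-base windows at peak centres GGAG was found in 29.0% ± 0.676 of all LIN28B peaks of K562 (SD, n = 3) and in 13.8% to 24.3% of the peaks of each library of the other RBPs. Of the 48 globin peaks of LIN28B 16 held it (33.3%), and of the 422 globin peaks of the other RBPs 104 (24.6%). The LIN28B ones lay on HBE1 (5 in exon 1, 3 in exon 2, 3 in exon 3), HBG2 (1 in exon 2, 2 in exon 3) and HBZ (2 in the 3′ UTR), and not on HBG1. Peaks at the same site in different libraries are each counted, so these shares are not of independent sites. GCATG, the motif of RBFOX2, was in 0 of its 54 globin peaks, where 7.09% ± 1.35 of all its K562 peaks held it, and TGTANATA, the motif of PUM2, was in 0 of its 12, where 3.96% ± 2.04 did. The letters GGAG, GCATG and TGTANATA (N is any base) were searched on the strand of the peak, in the RNA sense. The other K562 libraries held GCATG in 1.64% to 2.69% and TGTANATA in 0.0313% to 0.571% of their peaks. The mRNAs of HBG1, HBG2 and HBE1 hold 1 GCATG each, and that of HBZ holds 1 TGTANATA. The 12 globin peaks of PUM2 are too few to set against a share of 3.96%.

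EIF3G and DDX3 were highest at the 5′ end of HBE1. Over the 5′ UTR the EIF3G folds were 6.74, 7.18 and 8.69, of which the last passed the limits, and the DDX3 folds 4.90, 5.27 and 3.60. Those of ZC3H11A were 1.14, 1.15 and 0.783, and LIN28B had no peak there in any sample. The bases around the start codon (in capitals), which the EIF3G peak of sample 3 covers, are:
HBE1 start codon, chr11:5269881-5269910, minus strand: aagctctcaggcctggcatcATGgtgcatt
On HBZ the DDX3 folds at the 5′ UTR or first coding bases were 6.49, 5.54 and 5.27 and those of EIF3G 7.41 and 4.78 in samples 2 and 3, with no peak there in sample 1.

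**Figure D3:**
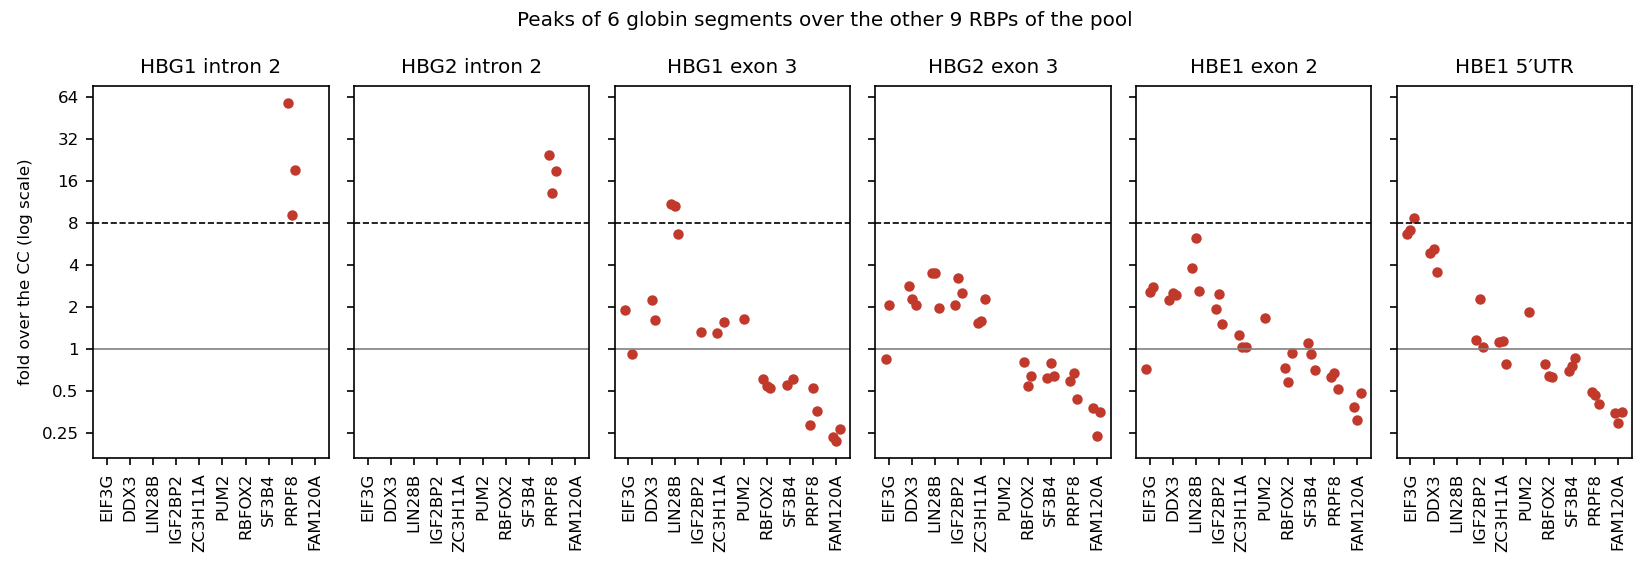
Fold over the CC (log scale) in 6 segments of the globin genes, by RBP, with 1 dot per K562 10plex sample that had a peak there. The dashed line is at 8 and the solid line at 1. Folds are summed over the peaks of a segment, which puts PRPF8 of sample 2 in HBG1 intron 2 at 9.13 from 2 peaks. PRPF8 alone has dots in intron 2, LIN28B is highest in HBG1 exon 3, EIF3G and DDX3 are highest in the HBE1 5′ UTR, and FAM120A lies under 1 in the 4 segments in which it has a peak.

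The 3′ UTR was the place of the highest IGF2BP2 values. On HBG2 its folds were 7.38, 4.06 and 5.50, on HBG1 2.46, 2.59 and 3.06, on HBA1 2.57, 4.45 and 3.74 and on HBA2 2.68, 4.04 and 3.45, none above 8. The alpha-globin 3′ UTRs were the measurable part of these 2 mRNAs, and the windows at the IGF2BP2 peak centres, with capitals at bases that differ from the other gene, show what let their reads be placed:
HBA1 3′ UTR, chr16:177451-177480, plus strand: tcccCCcAgCccctcctcccctTcCtgcaC
HBA2 3′ UTR, chr16:173632-173661, plus strand: GCtgggcctcccAAcGgGccctcctcccct
HBA1 was read more than HBA2 by each of the 7 RBPs with a peak on both, with a ratio of mean levels between 1.89 for SF3B4 and 6.71 for PRPF8, from 132 and 131 placeable bases. In 1 library, SF3B4 of sample 3, HBA2 was the higher.

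FAM120A lay under the CC on every globin peak. Its 58 globin peaks had folds of 0.148 to 0.685, and in samples 1 and 2, whose P-values are two-sided, 32 of 38 were below the CC at P under 0.001, where 3.03% of all its peaks were. FAM120A was also the largest library of its pools. At any P, 86.1% of all FAM120A peaks had a fold above 1. Globin peaks with a fold above 1 were also fewer than among all peaks for RBFOX2 (10 of 54, background 87.4%), PRPF8 (15 of 60, background 95.9%), SF3B4 (17 of 51, background 94.1%), ZC3H11A (33 of 43, background 87.9%), LIN28B (40 of 48, background 92.6%) and EIF3G (26 of 30, background 92.9%). They were 53 of 53 for DDX3 (background 91.8%), 12 of 12 for PUM2 (background 92.5%) and 58 of 61 for IGF2BP2 (background 88.9%). These shares are descriptions with no test.

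Where the reads of an RBP lay along HBE1 was given as a percent of its peak reads by the region under the centre of the peak. EIF3G had 57.1, 27.0 and 49.6% in the 5′ UTR, and each other library had at most 28.6%, with a median of 9.79%. LIN28B had 92.9, 95.5 and 90.8% in the coding sequence and 0% in the 5′ UTR in all 3 samples. IGF2BP2 had 14.1, 15.98 and 20.3% and ZC3H11A 9.57, 15.5 and 23.6% in the 3′ UTR, where the median of the libraries of the other RBPs was 9.52% for either. For the other RBPs the coding sequence took a mean of 69.6% (DDX3) to 81.0% (PUM2). These are descriptions with no test. Over all 6 mRNAs the means of the 10 RBPs were 11.4% in the 5′ UTR, 67.5% in the coding sequence, 19.2% in the 3′ UTR and 1.95% in introns. Outside HBE1 these shares also depend on which bases were placeable, so the pooled means do not show where binding lay.

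**Figure D4:**
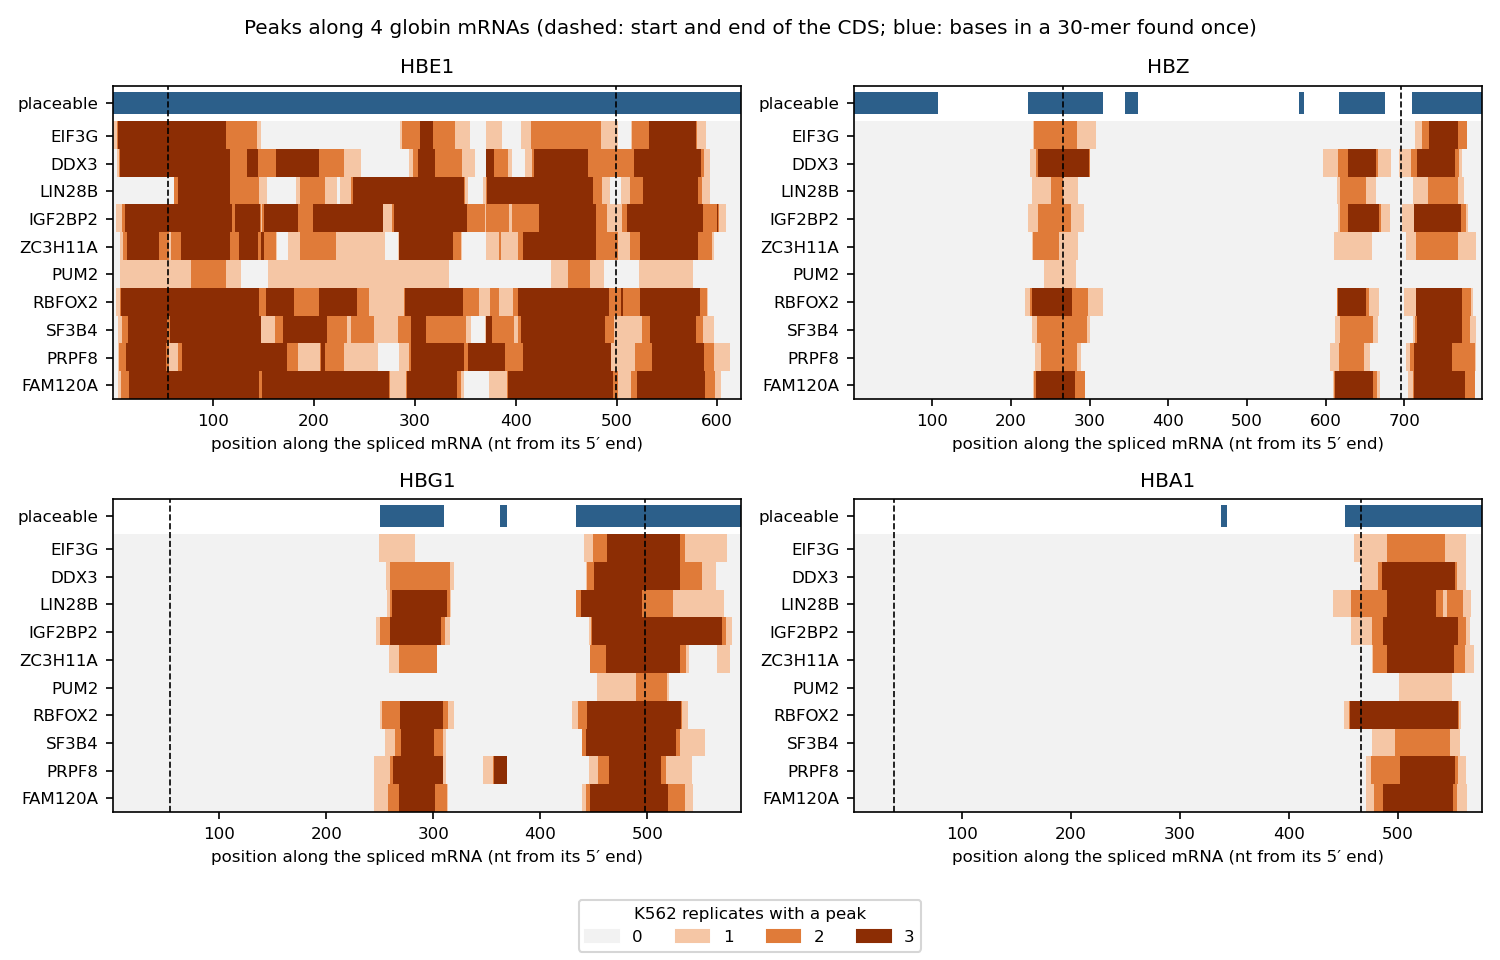
Number of K562 10plex samples (0 to 3, by colour) with a peak at each base of 4 globin mRNAs, by RBP, against the position in bases from the 5′ end. Dashed lines mark the start and end of the coding sequence, and blue bars the placeable bases. HBE1 is covered nearly end to end, while peaks on HBG1, HBZ and HBA1 lie mostly at the blue bars and run past them at some edges, as do PRPF8 peaks on HBG1.

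The deposited external background, RNA-seq by the study's methods, gave another picture. By the same limits 441 of 470 globin peaks were enriched over it (93.8%), where 49.9% of all K562 10plex peaks were. The external fold rests on almost no background reads: 433 of the 470 globin peaks (92.1%), and 97.4% of all K562 peaks, had at most 1 background read, and no globin peak had more than 3. Within a library an external fold on these mRNAs therefore mostly follows the read number of the peak, scaled by the library totals.

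The histone mRNA binding protein SLBP, pulled down alone in K562, had 8 globin peaks: 3 on HBE1 and 3 on HBZ in replicate 1, and 2 on HBE1 in replicate 2. They held 3 to 6 reads each, in libraries of 4445 and 1743 merged peaks. Over the external background 6 of 8 passed the limits, 4 in replicate 1, where 37.8% of all peaks passed, and 2 in replicate 2, where 99.9% did. The 2 peaks of replicate 2 (chr11:5269425-5269434 and chr11:5269435-5269467) touch each other at the start of HBE1 intron 2.

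The last comparison was between cell lines. None of the 1191120 merged peaks of the 20 HEK293 10plex libraries, and none of the 532040 of the 2 RBFOX2 singleplex HEK293 libraries, lay on a globin mRNA, whereas every K562 10plex library had at least 1. In 48 of the 60 pairs of gene and RBP all 3 K562 libraries stood above both HEK293 libraries, where 10.9% of all pairs did, and each of the rest had a K562 library at 0. The smallest p of 3 against 2 libraries is 0.1 by an exact two-sided permutation test, and 35 pairs reached it. Abundant mRNAs of both lines did have peaks with a read number in HEK293: EEF2 in 20 of 20 libraries, ACTB in 19, TUBA1B in 18, GAPDH in 16 and EEF1A1 in 11. HEK293 peaks without a read number counted as 0 in these library counts and in the 10.9%. The HEK293 counts may therefore be too low and the 10.9% too high. Counts of globin peaks rest on position alone and do not depend on read numbers. The smallest read number of a peak was 3, which the recovery also set as its lower limit. Less mRNA and less binding per mRNA, and fewer cells with an mRNA and less of it per cell, cannot be told apart in these bulk samples.

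The other genes of the erythroid lists gave a mixed pattern in K562. Of 5 further globin-cluster genes HBBP1 had peaks in 12 K562 libraries, HBQ1 in 3 and BGLT3 in 1, and HBM and HBZP1 in none. All 5 had none with a read number in HEK293. Placeable bases were not worked out for these 5 genes, so a lack of peaks on them cannot be read as a lack of binding. All 8 heme synthesis genes had K562 peaks, with 4 calls for a higher level and 0 for a lower level among 80 pairs. The 4 measured genes of the iron and chaperone list gave 2 higher and 3 lower of 40 pairs, the 7 erythroid factors 1 and 2 of 70, the 6 membrane genes 4 and 0 of 60, and the 5 abundant mRNAs 0 of 50 (background 4.1% higher and 0.279% lower). AHSP, the alpha-globin chaperone, had no peak in K562 and none with a read number in HEK293.

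Genes with a similar RBP pattern over the 30 K562 libraries were taken from 5927 candidates by Pearson's r of log2(RPM + 10), as a description. HBG1 was closest to RPL11, a ribosomal protein gene (r = 0.91), HBE1 to ALDOA, a glycolytic enzyme (r = 0.87), and TUBA1B, a tubulin (r = 0.84), HBZ to SLC6A8 (r = 0.80) and HBA1 to H2BC21 (r = 0.77). For HBG2, FKBP8 was among the closest (r = 0.87). Among the globins r was 0.85 for HBG1 with HBE1, 0.80 for HBG1 with HBG2 and 0.50 for HBA1 with HBA2. All these values share libraries and their depth.

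The spans annotated for HBE1 and HBG2 continue for 236 kb upstream of the HBE1 mRNA on the same strand (chr11:5269946-5505652). Peaks there were not counted as globin peaks and entered no comparison. The 30 K562 10plex libraries had 579 of them, in 39 of 49 windows of 5 kb, and the 20 HEK293 10plex libraries had 2.

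**Figure D5:**
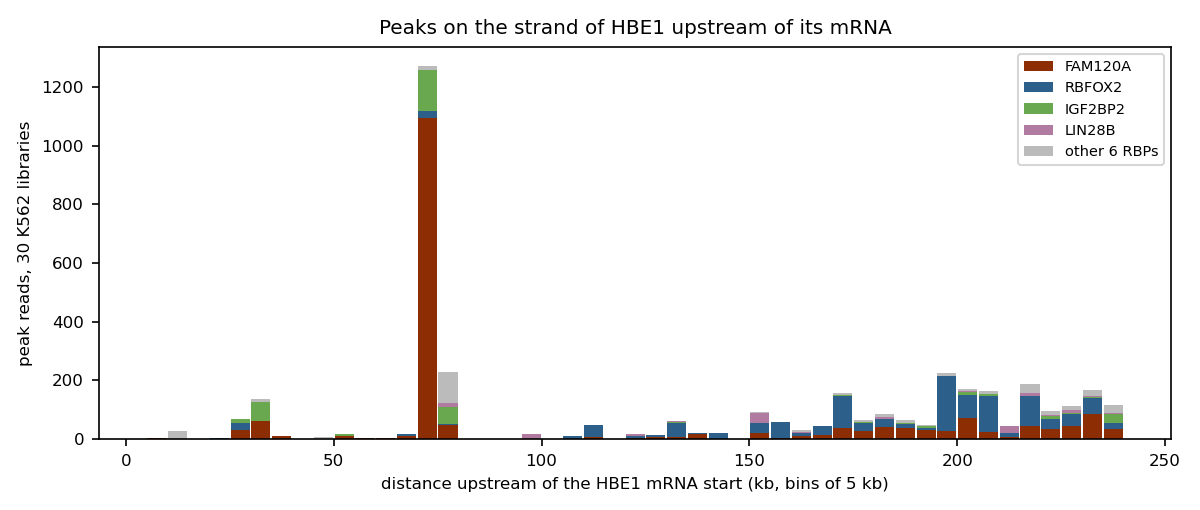
Peak reads of the 30 K562 10plex libraries in 5-kb bins against the distance upstream of the HBE1 mRNA start in kb, stacked by RBP. The tallest bin, 70.1 to 75.1 kb upstream, holds 1272 reads, of which 1095 are of FAM120A.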

How the data were processed

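ABC libraries of K562 and HEK293 cells were analysed from the peak files of 54 libraries. According to the methods and the submitters' processing notes, the authors trimmed reads with cutadapt 2.8, set repeats aside, aligned uniquely to GRCh38 with STAR 2.7.6, removed PCR duplicates and called peaks per library with CLIPper. The authors also deposited a list of merged peaks per library, which was used here, and a CC list without peaks on repeats. The deposited files give a CLIPper p-value and a display score per peak, the log2 fold and the −log10 P over an external background, and, for the CC, a log2 fold and −log10 P (K562 replicate 3) or, in a text field of other values, the statistic and p-value of a chi-squared test (replicates 1 and 2). All columns belong to samples of the series.

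Read numbers were recovered from the deposited fold and P as whole numbers. In the 22 libraries whose peak names carry reads, at least 96.9% of the recovered numbers were equal to them. No HEK293 10plex library is among them. Only numbers of 3 or more were allowed in the recovery. In the HEK293 10plex libraries 0.003% to 9.03% of the peaks gave no such number and counted as 0 reads. Every K562 10plex peak had a read number. CC reads of replicates 1 and 2 were solved from the chi-squared statistic, which gives a value above and a value below the CC, and the one nearer to the reads of the overlapping peaks of the other 9 libraries was taken. For replicate 3 the statistic was computed from the CC reads of its fold and solved in the same way. Where it was above 2, those CC reads came back for 99.3% to 99.9% of peaks, which checks only the choice of side. In replicates 1 and 2 the solved CC reads lay near a whole number for 68.7% to 90.8% of the peaks of a library, and all were rounded. The deposited −log10 P of replicate 3 is 0 for every K562 peak below the CC, so that only replicates 1 and 2 hold P-values below the CC. The RBP of a library was read from the name within its sample.

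A read that spans touching peaks may count in each, which the alternative of touching peaks counted once addresses. Peaks were assigned to GENCODE 44 genes by overlap on their strand. Levels were tested as log2(RPM + 10) over genes with a peak in 3 or more of 30 K562 libraries, by exact permutation of 1 library per replicate (1000 choices) with Benjamini-Hochberg adjustment at 0.05, after a check on simulated data. Deviations from the RBP means correlated at a mean of 0.08 to 0.14 within a replicate and -0.06 between replicates, and the libraries of a replicate come from 1 tube. Placeable bases came from all 30-mers of the main chromosomes, both strands. Python 3.11.15, numpy 2.4.6, pandas 2.3.3 and scipy 1.17.1 were used. The gene lists, the 6 members and the tests were chosen with earlier results of these data known. Some genes of these lists and of the genes most alike are not reported here. Alternatives are in the closing section.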

Additional observations from a re-analysis of the deposited data

Results flagged for a closer look

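The spans that GENCODE gives HBE1 and HBG2 also cover 236 kb upstream of the HBE1 mRNA (chr11:5269946-5505652, minus strand). This stretch was outside the comparisons, and it stands out because it held 579 peaks of the K562 10plex libraries with 3936 reads, against 2 peaks in the HEK293 10plex libraries, both of DDX3, and 0 in the RBFOX2 singleplex HEK293 libraries. SLBP singleplex K562 libraries had 15. FAM120A, the RBP with the lowest levels on 5 of the 6 globin mRNAs, had 224 of these peaks and 450 ± 83.8 RPM (SD, n = 3), above its 306 ± 71.8 RPM on HBE1 itself, and RBFOX2 had 192 peaks and 736 ± 331 RPM. DDX3, the third highest on the globin mRNAs, had 12 peaks and 92.5 ± 51.3 RPM, and EIF3G, the highest there, had 2 peaks.

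A 5-kb window 70.1 to 75.1 kb upstream of the HBE1 start (chr11:5340001-5345000) held 65 peaks and 1272 of the 3936 reads (32.3%), of which FAM120A gave 1095 reads in 36 peaks. Over the CC, 8 of 161 FAM120A peaks (18.6% of all its peaks), 27 of 133 RBFOX2 peaks (11.2%), 12 of 53 IGF2BP2 peaks (12.04%) and 10 of 19 LIN28B peaks (37.5%) of this stretch were enriched. So were 0 of 28 PRPF8 peaks (22.5%), 4 of 11 SF3B4 peaks (30.8%), 4 of 8 DDX3 peaks (21.2%), 3 of 3 PUM2 peaks (30.1%), 0 of 2 EIF3G peaks (31.7%) and 1 of 1 ZC3H11A peak (22.4%), with the share among all K562 10plex peaks of the RBP in parentheses. Of the 579 peaks 578 had at most 1 read in the external background. Depth moved with the RBP here too, and its part in these values was not tested.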

How the results depend on the processing

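The 2 globin calls of the share test depended on the processing. With a pseudocount of 1, 0 of 60 globin pairs and 3739 of all pairs were called, and with all genes that have a peak 0 globin pairs were. With touching peaks counted once 1 globin pair was called. Without the replicate block, with libraries drawn without regard to replicate, 1 globin pair (FAM120A on HBE1) was called. With 2 replicates the smallest p is 0.01 and no pair of any gene could pass, so leaving out each replicate in turn gave 0 to 0 globin pairs and 0 to 0 pairs of all genes. The direction of both calls was the same under every alternative run. For LIN28B on HBG1 the adjusted p lay between 0.0271 and 0.391 over all alternatives run, and for FAM120A on HBE1 between 0.0313 and 0.318.

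Enriched globin peaks over the CC numbered 4 with P below 1e-05 and a fold above 16, 114 with any fold above 1, 441 over the external background, and 7 to 9 without 1 replicate. The external count was 279 to 315 without 1 replicate, and for SLBP 1 with the stricter limits and 2 to 6 without 1 replicate. Of the reads on the 6 mRNAs the 3′ UTR held 26.0% by number of peaks and 21.9% with bases split over regions, and without 1 replicate the ranges were 18.1% to 20.6% in the 3′ UTR, 9.99% to 13.0% in the 5′ UTR, 65.9% to 70.6% in the coding sequence and 1.37% to 2.43% in introns. CLIPper peaks before merging numbered 1025 on the globin mRNAs, and 298 to 334 merged peaks were left without 1 replicate, with 0 to 0 in HEK293. Word starts found once in the genome were 21.8% and 49.6% of the HBG1 mRNA with words of 20 and 50 bases, 21.3% and 49.5% of HBG2, 90.9% and 100% of HBE1, 29.9% and 49.1% of HBZ, 20.6% and 36.0% of HBA1 and 21.5% and 35.9% of HBA2. Levels per placeable base, an alternative chosen after seeing the data, left HBE1 the highest in 27 of 30 libraries. The cause of these changes was not tested. Peaks of 3 reads, in libraries of as few as 13351 reads, limit what a 0 can mean.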
